A study of Homo sapiens with 12 samples.

Results

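The mRNA of 32 genes of cholesterol and fatty acid synthesis was followed in hypoxic U87 cells that lacked HIF1α, HIF2α or both. U87 (U-87 MG) is an established human glioblastoma cell line. The members were chosen by symbol, from the enzymes of both pathways and the proteins that sense and carry sterols, and matched to the table by Ensembl identifier. All 32 were found among its 20263 genes, and all 32 were among the 11731 genes tested. The 4 groups, with 3 libraries each, were cells with an empty vector (vector), cells with HIF1α knocked out (HIF1α-ko), cells with HIF2α knocked out (HIF2α-ko) and the dual knockout (HIF1α/2α-ko). Every group, vector included, was kept in 1% O2 for 72 h according to the record of the sequencing, whereas the general methods of the study give a shorter exposure for mRNA work. There was no normoxic group, so each comparison describes loss of a factor under hypoxia and none describes hypoxia itself. How the knockouts were made and whether a group was 1 clone is not given in the sources used here.

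Cells build cholesterol from acetyl-CoA through mevalonate and squalene. The steps up to squalene use no molecular oxygen, but the later conversion of squalene to cholesterol uses a lot of it, at the steps of SQLE, CYP51A1, MSMO1 and SC5D. Fatty acid synthesis by ACLY, ACSS2, ACACA, FASN and ELOVL6 needs no oxygen either, whereas the desaturases SCD, FADS1 and FADS2 consume it when they place a double bond. Transcription of most of these genes is driven by SREBP1 and SREBP2, the products of SREBF1 and SREBF2. SCAP escorts both from the endoplasmic reticulum when sterols are low, and INSIG1 and INSIG2 hold SCAP back when sterols are high. HIF1α and HIF2α are the oxygen-regulated subunits of the hypoxia-inducible factors, and INSIG2 is among the genes that have been linked to them.

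Values are TPM, in which the reads of a gene are divided by its length and every library is brought to the same sum. TPM keeps no sequencing depth, so the depth of a library is unknown. Fold changes are log2 differences of log2(TPM + 1) from a limma model of all 4 groups, a scale that understates the change of low genes. Adjusted p is from limma with Benjamini-Hochberg adjustment over the 11731 genes within a comparison, and a gene is said to have risen or fallen when it is below 0.05. Nothing in the labels says that the libraries of a group came from separate cultures, so p measures the spread between libraries, which may be technical. In bulk RNA, fewer cells of a kind and less RNA per cell cannot be told apart. As a check of the labels, HIF1A had a log2 fold change of -1.34 in HIF1α-ko (adjusted p = 0.000851 from limma), at 38.6 to 57.3 TPM against 110 to 151 in vector. EPAS1, which encodes HIF2α, had -1.59 in HIF2α-ko (0.000375). In the dual knockout they had -0.71 (0.0104) and -1.45 (1.3e-05), so both mRNAs were reduced and not absent. HIF1A in the dual knockout, at 67.8 to 89.2 TPM, was however higher than in HIF1α-ko (0.64, 0.0287) and did not pass the threshold against HIF2α-ko (-0.19, 0.453), which had 76.1 to 108 TPM and an intact HIF1α by its label. The mRNA level thus sets the dual knockout apart from vector for HIF1A, but not from HIF2α-ko. The glioblastoma line markers VIM, CD44, FN1 and SPARC were all expressed, but 3 of these 4 fell in the dual knockout, VIM (-0.96, 0.000412), FN1 (-1.63, 0.00464) and SPARC (-0.92, 0.0163), the last not without vector replicate 1 (-0.63, 0.0655). VIM also fell in HIF2α-ko (-0.81, 0.00858) and FN1 in HIF1α-ko (-1.39, 0.0222), and 0 of the 4 rose in any knockout by limma, with or without adjustment. Their part in the results for the members was not tested. Of the markers of other cells, 6 of 8 (for leukocytes, epithelium, endothelium and neurons) were too low to be tested. The other two, VWF and SNAP25, reached at most 2.93 and 4.28 TPM. Of the members, 8 overlap another gene of the table (ACAT2, MVK, TM7SF2, SREBF1, ACSS2, ACACA, FADS1 and FADS2) and 5 have named pseudogene copies (FDPS, CYP51A1, HSD17B7, SCD and FADS2). As it is not given in the sources used here whether strand was used or how shared reads were counted, the values of these genes are uncertain to that extent.

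One vector library stood apart from the others in most of the members. Vector replicate 1 lay above both other vector libraries for 31 of the 32 members, against 45.7% of all genes tested. It was at least 1.5 times both of them for 22 members (68.8%), against 15.7% of all genes. The median log2 difference between vector replicate 1 and the mean of the other vector libraries was 1.06 for the members and 0.06 for all genes, and it reached 2.98 for HMGCS1. Vector replicate 1 fell inside the range of the 9 knockout libraries for 27 members. Vector replicates 2 and 3 were both below every knockout library for 25 members (78.1%, against 15% of all genes) and above every knockout library for 0 members (8.14% of all genes). The summed TPM of the members was 12774 in vector replicate 1, 5327 and 5501 in vector replicates 2 and 3, and 10378 to 14627 in the knockout libraries. Across all genes, log2(TPM + 1) of vector replicate 1 correlated with the other vector libraries at r = 0.968 and 0.966, and these with each other at 0.989. Replicate 1 was the least correlated library in the knockout groups too. The values were 0.982 and 0.983 against 0.991 in HIF1α-ko, 0.985 and 0.985 against 0.992 in HIF2α-ko, and 0.975 and 0.977 against 0.992 in the dual knockout. FN1 was also at 169 TPM in vector replicate 1 and at 586 and 629 in the other vector libraries. What sets this library apart was not tested. Counts of members against vector are therefore given with and without it.

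**Figure D1:**
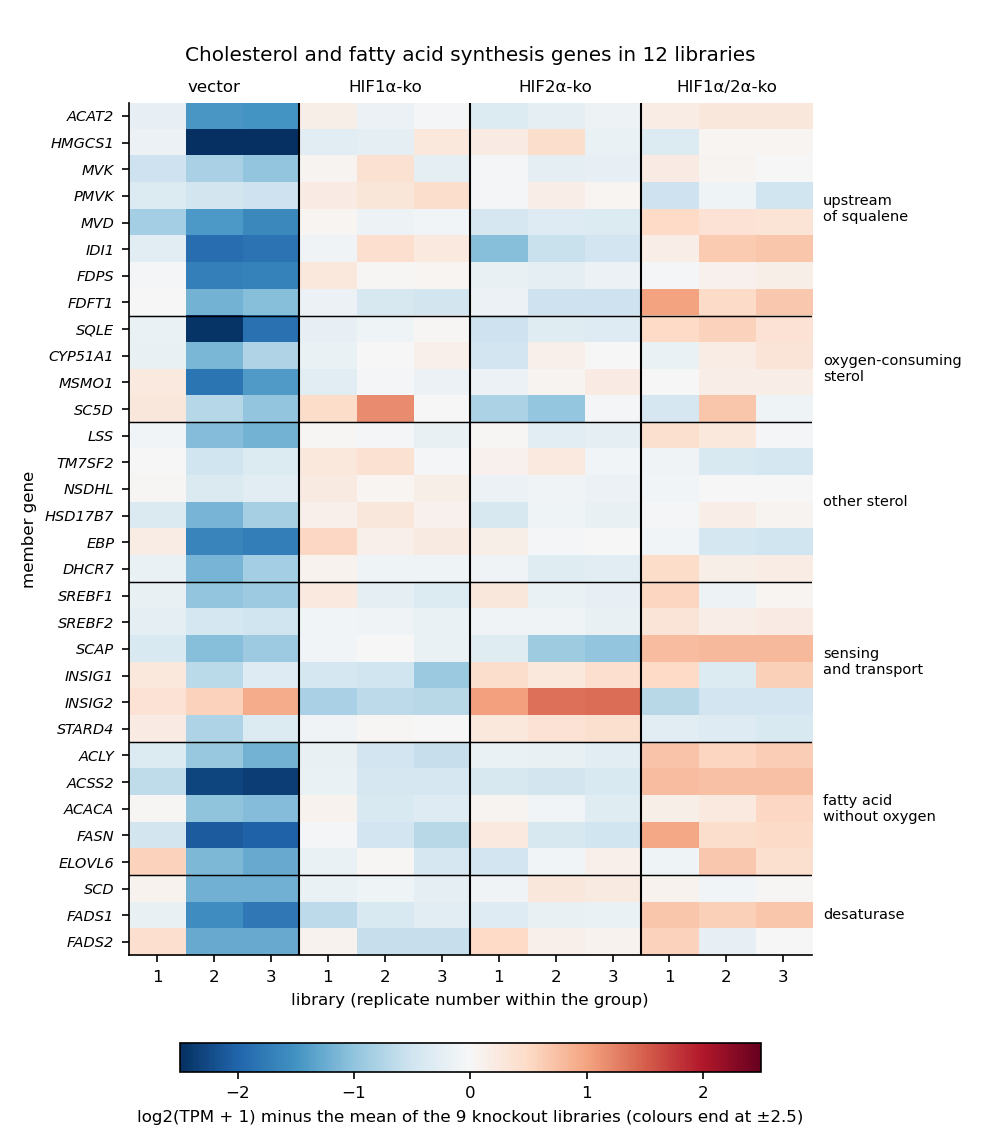
Heat map of the 32 members (rows, grouped by role) in the 12 libraries (columns, by group and replicate number). Colour is log2(TPM + 1) minus the mean of the 9 knockout libraries, and colours end at 2.5 in either direction. Vector replicates 2 and 3 are below the knockout libraries for most members, INSIG2 is above HIF1α-ko and the dual knockout in all vector libraries, and vector replicate 1 is inside the range of the knockout libraries for 27 of the 32 members.

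The members were mostly higher in the knockouts than in vector. In the dual knockout 22 members rose (31.8% of all genes tested did) and 1 fell (14.8%). In HIF1α-ko 16 rose (17.3%) and 1 fell (8.77%). In HIF2α-ko 9 rose (5.07%) and 0 fell (5.89%) by limma, also 0 at an unadjusted p below 0.05. The 3 comparisons share the vector libraries and are not independent of each other. Without vector replicate 1, 27 members rose and 1 fell in the dual knockout (33% and 15.3% of all genes), 30 and 1 did so in HIF1α-ko (24.1% and 11.6%), and HIF2α-ko had 28 and 0 (11.1% and 10.2%). Without vector replicate 2 or 3 HIF1α-ko had 6 and 1 or 5 and 1, and HIF2α-ko 1 and 0 or 2 and 0. The shares of all genes without vector replicate 2 or 3 are not given here. Of the calls made with all libraries, 18 of 23 in the dual knockout, 6 of 17 without HIF1α and 1 of 9 without HIF2α held whichever single library was left out. The 6 in HIF1α-ko were MVK, PMVK, MVD, HSD17B7, ACSS2 and INSIG2, and the 1 in HIF2α-ko was MVD.

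**Figure D2:**
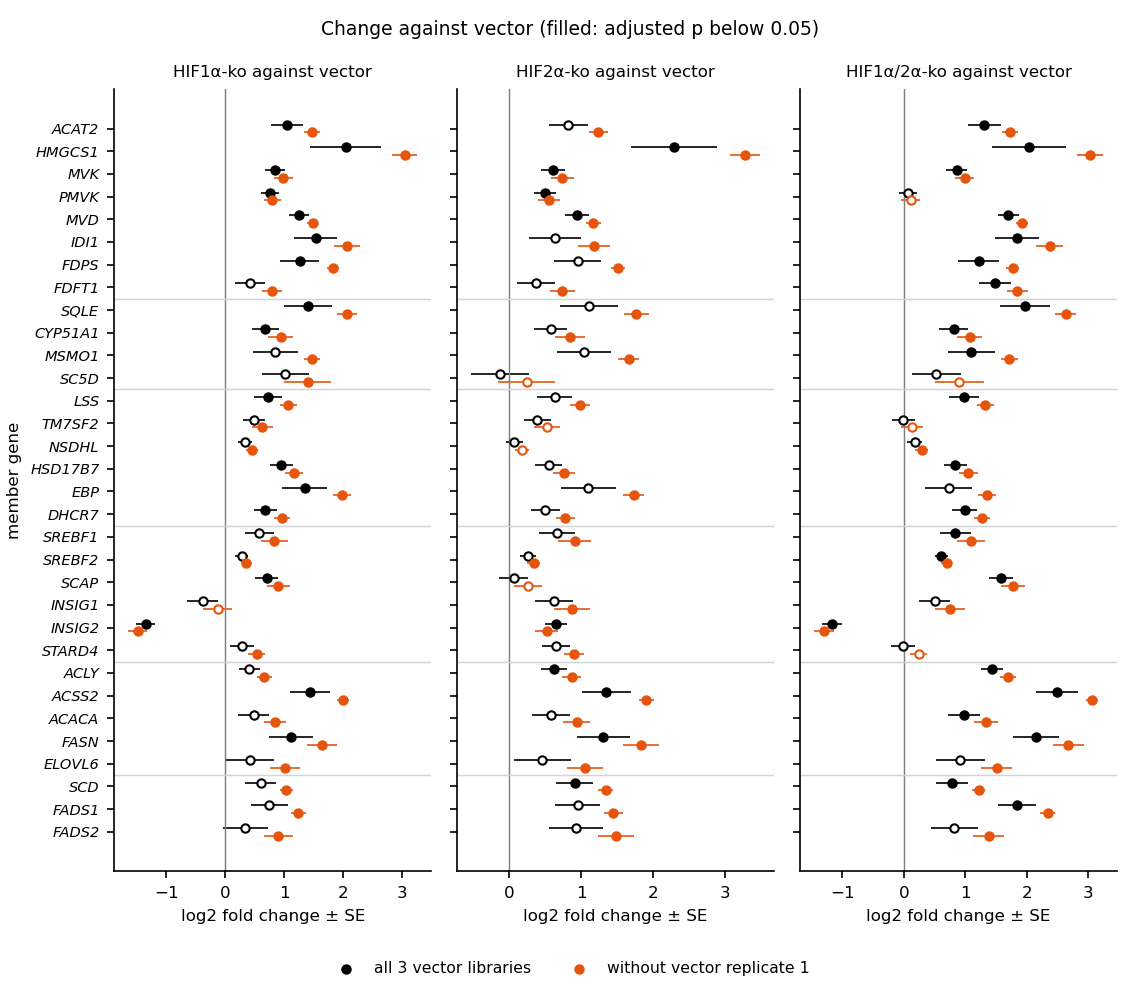
Log2 fold change against vector (horizontal axis, with standard error) of each member in the single knockouts and the dual knockout, with all 3 vector libraries (black) and without vector replicate 1 (orange). Filled points have an adjusted p below 0.05 from limma. Leaving out vector replicate 1 raises most estimates and the number of filled points, from 16 to 30 risen members in HIF1α-ko.

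Of the 8 genes that lead to squalene, HIF1α-ko raised 7, HIF2α-ko 4 and the dual knockout 7, and without vector replicate 1 these counts were 8, 8 and 7. Among all genes tested, 17.3%, 5.07% and 31.8% rose in the same order, and 24.1%, 11.1% and 33% did without vector replicate 1. HMGCS1, which makes HMG-CoA at the entry to the mevalonate pathway, lies on GRCh38 chromosome 5, from 43289395 to 43313512. Its TPM was 133, 14.3 and 17.8 in vector, 120, 126 and 175 without HIF1α, 169, 199 and 131 without HIF2α, and 115, 152 and 152 without both. Vector replicate 1 stood among the knockout libraries and the other vector libraries far below all of them. The log2 fold change was 2.04 (standard error 0.60, adjusted p = 0.0138 from limma) in the dual knockout and 3.03 (adjusted p = 3.17e-06 from limma) without vector replicate 1, and the call was lost without vector replicate 2 (1.47, adjusted p = 0.0657 from limma) or 3. HMGCS1 also rose by 2.04 in HIF1α-ko (0.0257), lost without either of vector replicates 2 and 3 or HIF1α-ko replicate 2 or 3 (1.47 without vector replicate 2, 0.109). The rise of 2.29 for loss of HIF2α (0.0291) was lost without either of vector replicates 2 and 3 or any HIF2α-ko library (1.87 without vector replicate 3, 0.128).

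MVD, mevalonate diphosphate decarboxylase, rose in all 3 knockouts whichever library was left out. Its TPM was 101, 66.7 and 58.5 in vector, 189, 167 and 174 without HIF1α, 136, 145 and 144 without HIF2α, and 258, 235 and 230 without both. No knockout library overlapped vector, vector replicate 1 included, and the dual knockout was above both single knockouts. Its log2 fold change was 1.7 in the dual knockout (adjusted p = 1.27e-05 from limma), 1.25 for HIF1α-ko (0.000557) and 0.94 for HIF2α-ko (0.00604). MVK, mevalonate kinase, rose by 0.85, 0.61 and 0.86 in the same order, also without overlap with vector, but the second call needed vector replicates 2 and 3 and every HIF2α-ko library, among others (0.51 without vector replicate 3, adjusted p = 0.151 from limma).

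ACAT2 (acetoacetyl-CoA thiolase), IDI1 (isopentenyl diphosphate isomerase) and FDPS (farnesyl diphosphate synthase) rose in HIF1α-ko by 1.04, 1.53 and 1.26 and in the dual knockout by 1.31, 1.84 and 1.22. In HIF2α-ko they stood at 0.82, 0.64 and 0.95 and did not pass the threshold, but all 3 passed it without vector replicate 1. The HIF1α-ko calls of ACAT2 and FDPS were lost without vector replicate 2 or 3, that of ACAT2 also without HIF1α-ko replicate 3, and that of IDI1 without vector replicate 3, with log2 fold changes of 0.82, 0.99 and 1.27 without vector replicate 3. FDFT1, squalene synthase, was the last gene of this stretch and, like MVD and ACAT2, was higher in every dual knockout library than in all other libraries. Its TPM was 328, 144 and 157 in vector, 298, 251 and 238 without HIF1α, 299, 231 and 231 without HIF2α, and 664, 462 and 528 without both. The dual knockout did not overlap the other groups, and the log2 fold change from vector was 1.48 (standard error 0.26, adjusted p = 0.000649 from limma). In the single knockouts it was 0.42 and 0.37, neither past the threshold.

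PMVK, phosphomevalonate kinase, was the exception among these genes. Its TPM was 13.8, 12.7 and 12.2 in vector, 20.8, 22.2 and 24.6 without HIF1α, 17.5, 20.1 and 18.5 without HIF2α, and 12.2, 16.4 and 12.3 without both. Both single knockouts were above vector in every library, while the dual knockout overlapped vector, and the vector libraries were close together for this gene. It rose in HIF1α-ko (0.76, adjusted p = 0.00372 from limma) and HIF2α-ko (0.5, 0.047), and the dual knockout differed from vector by 0.07 (0.738). Leaving out vector replicate 2 or 3, any library of the single knockouts or HIF1α/2α-ko replicate 3 ended the HIF2α-ko call (0.45 without HIF2α-ko replicate 2, adjusted p = 0.158 from limma).

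The 4 oxygen-consuming sterol genes moved with the others in part. Of them 2 rose in HIF1α-ko and 3 in the dual knockout, while 0 did in HIF2α-ko by limma (3 at an unadjusted p below 0.05). Without vector replicate 1 these counts were 4, 3 and 3 for HIF1α-ko, the dual knockout and HIF2α-ko. The shares of all genes that rose were 17.3%, 31.8% and 5.07% in this order, and 24.1%, 33% and 11.1% without vector replicate 1. SQLE, squalene epoxidase and the first oxygen-using step, had a TPM of 93.7, 18.2 and 28.1 in vector, 90.2, 97.2 and 107 without HIF1α, 72.8, 84.3 and 83.0 without HIF2α, and 148, 156 and 135 without both. The dual knockout was above all other libraries, the single knockouts enclosed vector replicate 1 or lay below it, and vector replicates 2 and 3 were lowest. The change was 1.97 in the dual knockout (standard error 0.41, adjusted p = 0.00185 from limma), 1.4 with HIF1α lost (0.0259) and 1.11 with HIF2α lost (0.104). The HIF1α-ko call was lost without either of vector replicates 2 and 3 or HIF1α-ko replicate 2 or 3 (0.91 without vector replicate 2, adjusted p = 0.0995 from limma).

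CYP51A1, lanosterol 14α-demethylase, rose in the dual knockout by 0.81 (adjusted p = 0.0128 from limma), a call lost without vector replicate 2 (0.59, 0.0598) or HIF1α/2α-ko replicate 3. Its rise in HIF1α-ko, 0.68, had an adjusted p of 0.0482 from limma and was lost without any of 9 libraries, vector replicates 2 and 3 and all HIF1α-ko libraries among them (0.46 without vector replicate 2). MSMO1, methylsterol monooxygenase, had a TPM of 422, 99.9 and 134 in vector against 296 to 411 in the knockout libraries, so that vector held both its highest and its lowest libraries. It rose in the dual knockout (1.10, adjusted p = 0.0288 from limma), and the call was lost without either of vector replicates 2 and 3 or either of HIF1α/2α-ko replicates 2 and 3 (0.69 without vector replicate 2). SC5D, sterol C5-desaturase, was low, at 2.31 to 14.0 TPM over the 12 libraries, and passed the threshold in no comparison in the fit of all 12 libraries.

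The 6 other genes between squalene and cholesterol use no oxygen themselves. Of these 4 rose in HIF1α-ko and 3 in the dual knockout, while 0 did in HIF2α-ko by limma (4 at an unadjusted p below 0.05). Without vector replicate 1 these counts were 6, 5 and 4. Among all genes 17.3% rose in HIF1α-ko, 31.8% in the dual knockout and 5.07% in HIF2α-ko, and 24.1%, 33% and 11.1% without vector replicate 1. LSS, lanosterol synthase, DHCR7, 7-dehydrocholesterol reductase, and HSD17B7, a sterol ketoreductase, rose in the dual knockout by 0.98, 0.99 and 0.84 and in HIF1α-ko by 0.72, 0.68 and 0.95. The HIF1α-ko calls of LSS and DHCR7 were lost without either of vector replicates 2 and 3 or any HIF1α-ko library (0.51 for LSS without vector replicate 3 and 0.47 for DHCR7 without vector replicate 2), and that of LSS also without 5 others. EBP, the sterol isomerase, had a TPM of 210, 58.6 and 55.1 in vector, 266, 203 and 216 without HIF1α, 204, 182 and 186 without HIF2α, and 177, 136 and 131 without both. It was lowest among the knockouts in the dual knockout, in every library. EBP rose in HIF1α-ko (1.35, adjusted p = 0.022 from limma), a call lost without either of vector replicates 2 and 3 or any HIF1α-ko library (1.02 without vector replicate 3), and in the dual knockout it stood at 0.73 (0.135), and at 1.35 without vector replicate 1 (4.43e-05). TM7SF2, a sterol C14-reductase, at 4.06 to 8.38 TPM, and NSDHL, a dehydrogenase of sterol C4 demethylation, at 69.3 to 104 TPM, did not pass the threshold against vector with all libraries.

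INSIG2 was the 1 member that fell in HIF1α-ko and the 1 that fell in the dual knockout. This gene lies on GRCh38 chromosome 2, from 118088452 to 118110997. Its TPM was 37.7, 43.6 and 56.3 in vector, 16, 18 and 17.5 without HIF1α, 60.4, 77.1 and 78.1 without HIF2α, and 17.6, 20.6 and 20.5 without both. All libraries without HIF1α were below every other library, those without HIF2α alone were above all others, and vector replicate 1 did not stand apart. INSIG2 fell in HIF1α-ko (log2 fold change -1.35, standard error 0.16, adjusted p = 0.000334 from limma) as it did in the dual knockout (-1.17, 0.000121), and it rose in HIF2α-ko (0.65, 0.0256). Both falls held without any single library, while the rise did not pass without vector replicate 2 or either of HIF2α-ko replicates 2 and 3 (0.58 without HIF2α-ko replicate 3, adjusted p = 0.103 from limma). Between the single knockouts the difference was -1.99 (standard error 0.16, adjusted p = 8.13e-06 from limma, HIF1α-ko minus HIF2α-ko), and the dual knockout differed from HIF1α-ko by 0.17 (0.465).

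INSIG1, its paralog, was far more abundant. TPM of INSIG1 was 777, 408 and 521 in vector, 477, 462 and 341 without HIF1α, 882, 780 and 873 without HIF2α, and 921, 514 and 985 without both. HIF1α-ko lay below HIF2α-ko and below the dual knockout in every library, and 1 dual knockout library lay far below the other two. The difference was -1.0 between HIF1α-ko and HIF2α-ko (standard error 0.26, adjusted p = 0.0164 from limma), lost without HIF1α-ko replicate 3 (-0.84, 0.0711) or HIF2α-ko replicate 1, and no knockout passed the threshold against vector. INSIG1 rose, without vector replicate 1, in HIF2α-ko (0.87, 0.0319) and in the dual knockout (0.75, 0.0296). As TPM is scaled by length, the genes can be set against each other within a library. The ratio of INSIG1 to INSIG2 was 9.26 to 20.6 in vector, 19.5 to 29.7 in HIF1α-ko, 10.1 to 14.6 in HIF2α-ko and 25 to 52.4 in the dual knockout, so that every dual knockout library was above every HIF2α-ko library.

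SCAP rose with loss of HIF1α, and most in the dual knockout. Its TPM was 16.4, 9.89 and 11.1 in vector, 20.5, 21.8 and 19.2 without HIF1α, 17.4, 11.3 and 10.5 without HIF2α, and 37.7, 38.8 and 38.6 without both. The dual knockout libraries were almost equal and above all others, and HIF2α-ko overlapped vector. The change was 1.58 in the dual knockout (standard error 0.20, adjusted p = 7.31e-05 from limma), 0.70 in HIF1α-ko (0.0251) and 0.06 in HIF2α-ko (0.889). The HIF1α-ko call was lost without either of vector replicates 2 and 3 or HIF1α-ko replicate 2 or 3 (0.56 without vector replicate 2, adjusted p = 0.1 from limma). HIF1α-ko was above HIF2α-ko by 0.64 (0.0369), lost without any HIF1α-ko library, either of HIF2α-ko replicates 2 and 3 or HIF1α/2α-ko replicate 3 (0.51 without HIF2α-ko replicate 3, 0.125) and with median ratio scaling, while with the replicate block described with the knockout groups it passed (0.0101).

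SREBF2, for the regulator of sterol genes, changed little in size but with little spread. TPM of SREBF2 was 167, 143 and 138 in vector, 185, 184 and 172 without HIF1α, 184, 182 and 170 without HIF2α, and 243, 217 and 225 without both. No knockout library overlapped vector, and the dual knockout was above both single knockouts. It rose in the dual knockout by 0.61 (standard error 0.11, adjusted p = 0.000614 from limma) and stood at 0.28 and 0.26 in the single knockouts, without passing the threshold. SREBF1, for the regulator that favours fatty acid genes, rose in the dual knockout by 0.84 (adjusted p = 0.0142 from limma), a call lost without vector replicate 2 (0.70, 0.0602) or 3 or HIF1α/2α-ko replicate 1. STARD4, a carrier that moves cholesterol between membranes, was at 12.4 to 29.2 TPM and did not pass the threshold against vector with all libraries.

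**Figure D3:**
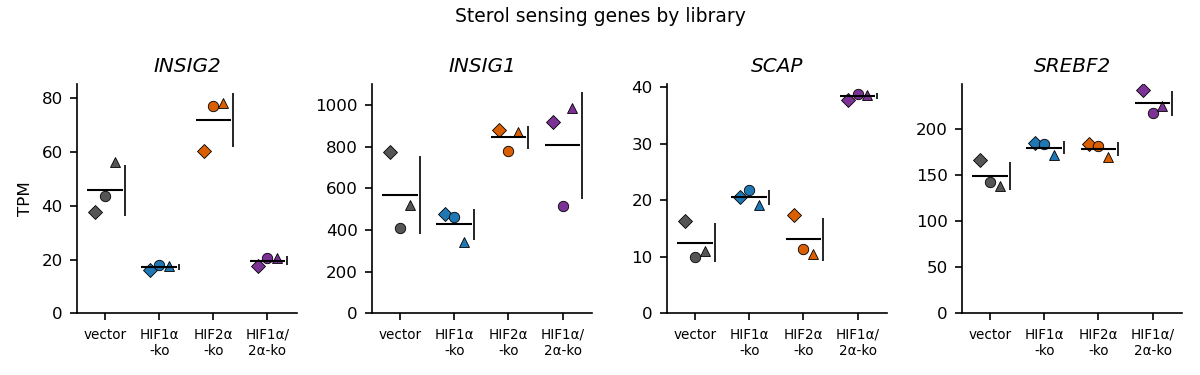
TPM (vertical axes, from 0) of INSIG2, INSIG1, SCAP and SREBF2 in each library. Diamonds, circles and triangles are replicates 1, 2 and 3, horizontal lines are group means and vertical lines the mean ± SD (n = 3). INSIG2 is at 16 to 20.6 in the libraries without HIF1α and at 37.7 to 78.1 in the others, and SCAP is at 37.7 to 38.8 in the dual knockout.

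The sequences before the transcription start are shown for both INSIG genes, because these paralogs differed in the dual knockout, where INSIG2 fell and INSIG1 did not, and for MSMO1 and SCD, as an oxygen-consuming gene of each pathway. Promoter sequences were matched by symbol in RefSeq (GRCh38.p14) for 28 of the 32 members, in 39 windows, and ACAT2, FDFT1, SQLE and FASN were not matched. The 120 bases given are those nearest to the start that lie in no annotated exon, 5′ to 3′ on the strand of the gene. In the INSIG pair capitals mark the core of a hypoxia response element, ACGTG or GCGTG on either strand. INSIG2 is at chr2:118088332-118088451 on the plus strand and INSIG1 at chr7:155297656-155297775 on the plus strand.
INSIG2: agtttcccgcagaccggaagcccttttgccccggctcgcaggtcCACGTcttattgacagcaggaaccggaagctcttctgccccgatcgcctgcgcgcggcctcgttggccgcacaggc
INSIG1: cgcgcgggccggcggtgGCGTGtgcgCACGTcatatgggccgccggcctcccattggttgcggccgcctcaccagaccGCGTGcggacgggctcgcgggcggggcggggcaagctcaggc

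For MSMO1, at chr4:165327503-165327622 on the plus strand, and SCD, at chr10:100347004-100347123 on the plus strand, capitals mark CCAAT on either strand, the box bound by NF-Y, which acts beside SREBP at many of its targets.
MSMO1: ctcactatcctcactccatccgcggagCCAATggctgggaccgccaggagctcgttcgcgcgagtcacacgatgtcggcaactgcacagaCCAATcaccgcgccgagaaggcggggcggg
SCD: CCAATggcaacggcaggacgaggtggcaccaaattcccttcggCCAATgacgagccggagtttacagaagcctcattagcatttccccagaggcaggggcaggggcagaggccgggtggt

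In the 250 bases before the start, CCAAT was found in 20 of the 28 members and in 24 of their 39 windows (61.5%), against 32% of all 35116 windows. The hypoxia response core was found in 24 of the 28 members, against 47.4% of all genes, and in 82.1% of their windows, against 43.2% of all. INSIG1, which did not fall, held 6 such cores, and each window of INSIG2, which fell, held 2. The windows of all genes were not matched to the members in base composition or expression, so these shares do not single out the members. A classical sterol response element, TCACNCCAC, was found in 1 member, SREBF2, and in 0.883% of all windows. These letters are short, the windows of a gene can overlap, and a match is not a bound site. For the sterol response element only this exact string was searched, so the count does not show that the other members lack such an element.

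Of the 5 fatty acid genes that need no oxygen, 4 rose in the dual knockout, 2 without HIF1α and 3 without HIF2α, and without vector replicate 1 all 5 rose in each. The shares of all genes were 31.8%, 17.3% and 5.07% in this order, and 33%, 24.1% and 11.1% without vector replicate 1. ACSS2, which makes acetyl-CoA from acetate, had a TPM of 128, 39.8 and 38.2 in vector, 177, 149 and 149 without HIF1α, 151, 145 and 152 without HIF2α, and 338, 331 and 331 without both. The knockouts did not overlap vector, and every dual knockout library was above every single knockout library. ACSS2 rose by 2.5 in the dual knockout (standard error 0.34, adjusted p = 9.5e-05 from limma), by 1.43 in HIF1α-ko (0.00986) and by 1.35 in HIF2α-ko (0.0247), the last lost without either of vector replicates 2 and 3 or any HIF2α-ko library (1.05 without vector replicate 3). Without vector replicate 1 the rise in the dual knockout was 3.06 (adjusted p = 8.87e-08 from limma).

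ACLY, which makes acetyl-CoA from citrate, had a TPM of 183, 119 and 101 in vector, 203, 165 and 155 without HIF1α, 207, 202 and 193 without HIF2α, and 379, 335 and 353 without both. HIF1α-ko overlapped vector, HIF2α-ko lay just above vector replicate 1, and the dual knockout was above all others. The ratio of ACSS2 to ACLY was 0.336 and 0.378 in vector replicates 2 and 3 against 0.701 to 0.987 in the other libraries. ACLY rose by 1.44 in the dual knockout (standard error 0.18, adjusted p = 6.56e-05 from limma) and by 0.62 in HIF2α-ko (0.0482). The latter was lost without any of 10 libraries, vector replicates 2 and 3 and all HIF2α-ko libraries among them (0.44 without vector replicate 3). In HIF1α-ko the change was 0.41 (0.114).

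FASN, fatty acid synthase, had a TPM of 114, 36.6 and 38.1 in vector, 153, 113 and 96.6 without HIF1α, 186, 120 and 112 without HIF2α, and 310, 214 and 219 without both. The dual knockout was above all other libraries, and replicate 1 was highest in each group. It rose by 2.15 in the dual knockout (standard error 0.37, adjusted p = 0.000532 from limma), by 1.11 in HIF1α-ko (0.0436) and by 1.31 in HIF2α-ko (0.0413). Both calls in the single knockouts were lost without any of 9 libraries, vector replicates 2 and 3 among them (0.83 without vector replicate 2 in HIF1α-ko and 1.06 without vector replicate 3 in HIF2α-ko). ACACA, acetyl-CoA carboxylase, rose in the dual knockout by 0.98 (adjusted p = 0.00909 from limma), and ELOVL6, a fatty acid elongase, at 1.91 to 10.1 TPM, stood at 0.92 (0.0766).

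Of the 3 desaturases, 2 rose in the dual knockout and 1 in HIF2α-ko, while 0 did in HIF1α-ko by limma (2 at an unadjusted p below 0.05), and without vector replicate 1 all 3 rose in each. Among all genes the shares were 31.8%, 5.07% and 17.3% in this order, and 33%, 11.1% and 24.1% without vector replicate 1. SCD, the desaturase that makes oleate, was the most abundant member and ranked 6 to 36 among all genes of a library. Its TPM was 7895, 3257 and 3242 in vector against 6370 to 9087 in the knockout libraries, which thus lay on either side of vector replicate 1. It rose in HIF2α-ko (0.91, adjusted p = 0.0457 from limma) and in the dual knockout (0.79, 0.0272). The former call was lost without any library but vector replicate 1, and the latter without either of vector replicates 2 and 3 or any dual knockout library (0.70 and 0.57 without vector replicate 3). The change in HIF1α-ko was 0.60 (0.108).

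FADS1, the Δ5 desaturase of long polyunsaturated fatty acids, had a TPM of 227, 87 and 74 in vector, 163, 199 and 215 without HIF1α, 208, 226 and 229 without HIF2α, and 420, 392 and 420 without both. The dual knockout was above all other libraries, and vector replicate 1 stood with the single knockouts. FADS1 rose in the dual knockout by 1.84 (standard error 0.31, adjusted p = 0.000427 from limma) and stood at 0.75 (0.0904) and 0.95 (0.0676) in the single knockouts. FADS2, the Δ6 desaturase, at 254 to 905 TPM, did not pass the threshold against vector (0.34, 0.93 and 0.82) and passed it in all 3 without vector replicate 1. FADS1 and FADS2 overlap on opposite strands, so without strand reads of one could be counted for the other.

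**Figure D4:**
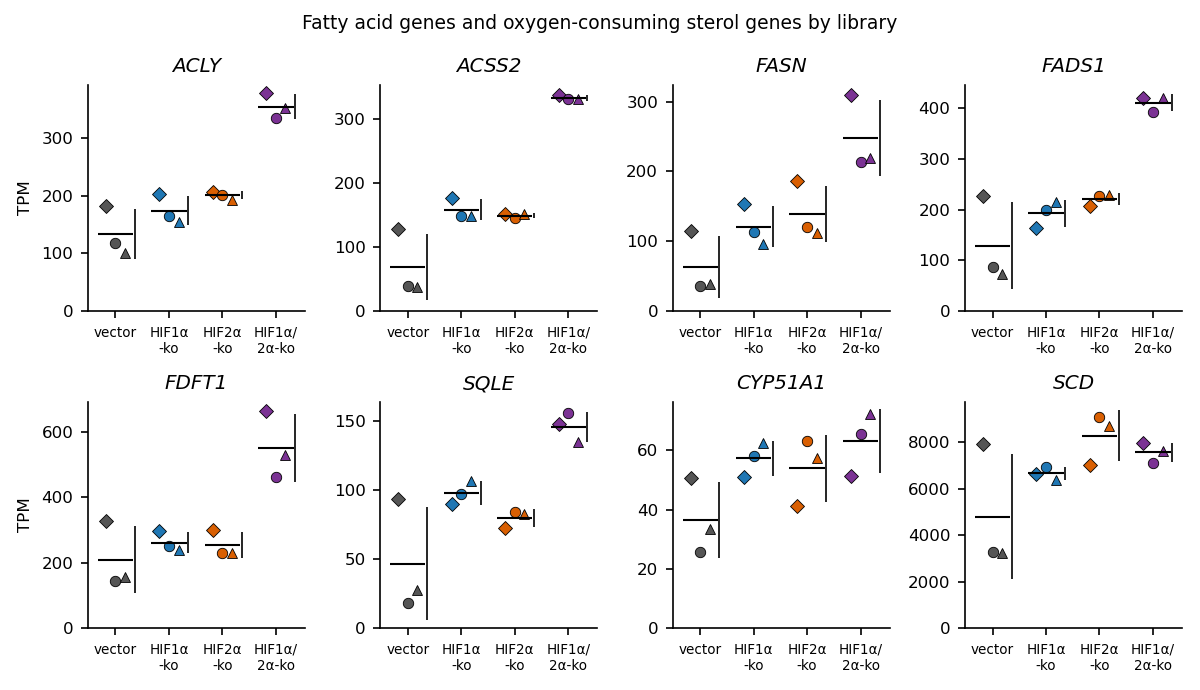
TPM (vertical axes, from 0) of ACLY, ACSS2, FASN, FADS1, FDFT1, SQLE, CYP51A1 and SCD in each library. Diamonds, circles and triangles are replicates 1, 2 and 3, horizontal lines are group means and vertical lines the mean ± SD (n = 3). The dual knockout is above all other libraries for ACLY, ACSS2, FASN, FADS1, FDFT1 and SQLE, and not for CYP51A1 or SCD.

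Oxygen-consuming sterol genes were then set against the others by their medians, each relative to the median of all genes tested, which was 0.18 without HIF1α, -0.04 without HIF2α and 0.21 without both. In HIF1α-ko the median was 0.97 for genes upstream of squalene, 0.76 for oxygen-consuming sterol genes, 0.52 for the other sterol genes, 0.30 for fatty acid genes without oxygen and 0.43 for desaturases. In HIF2α-ko these medians were 0.77, 0.86, 0.57, 0.67 and 0.97. In the dual knockout they were 1.19, 0.75, 0.58, 1.24 and 0.62. The sensing and transport genes lay at 0.10, 0.68 and 0.35 in the 3 knockouts. Oxygen-consuming sterol genes thus stood below both the genes upstream of squalene and the fatty acid genes without oxygen in the dual knockout, above both in HIF2α-ko, and between them in HIF1α-ko. The oxygen-consuming sterol genes held the same position without vector replicate 1, with 1.58, 1.17 and 1.46 for upstream, oxygen-consuming sterol and fatty acid genes in the dual knockout, 1.19, 1.26 and 1.06 for HIF2α-ko, and 1.28, 1.23 and 0.81 for HIF1α-ko. Without vector replicate 2, however, they stood below both in HIF2α-ko, so their position there depended on which vector libraries were used. Classes held 3 to 8 genes, and the medians are descriptions that were not tested.

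The knockout groups can be compared without the vector libraries. In these groups, deviations of same-numbered libraries from their group means correlated, most for replicate 1, which does not show that the libraries were paired. Beside the fit of all 4 groups stands a second fit, chosen after the data were seen. It holds these 3 groups and treats the replicate number as a block. As the block was taken from these data and not from the labels, its p values may be too small and serve as description. Against HIF1α-ko, 7 members were higher in the dual knockout (17.7% of all genes were) and 1 lower (10.6%), and with the block 17 (29%) and 4 (19.5%). Against HIF2α-ko, 8 were higher (33.5%) and 3 lower (12.9%), and with the block 15 (43.6%) and 5 (19%). The members' shares were near or below those of all genes, apart from the 17 of 32 that were higher with the block against HIF1α-ko. Median ratio scaling changed the second split to 4 higher and 4 lower. Between the single knockouts 1 member was higher in HIF1α-ko (17.8%) and 2 lower (7.37%), with the block 10 (37.8%) and 6 (12.7%), and with median ratio scaling 0 and 3.

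Of the fatty acid genes without oxygen, 2 of 5 were higher in the dual knockout than in each single knockout. Of the 6 sensing and transport genes, 3 were higher than in HIF1α-ko, and 2 were higher and 2 lower than in HIF2α-ko. Of all genes, 17.7% were higher than in HIF1α-ko, and 33.5% were higher and 12.9% lower than in HIF2α-ko. The 2 of 5 and 2 of 6 that were higher than in HIF2α-ko were near the share of all genes. Relative to all genes, the median of the fatty acid genes without oxygen was 0.96 against HIF1α-ko and 0.59 against HIF2α-ko, compared with 0.12 and 0.21 for oxygen-consuming sterol genes, 0.07 and 0.14 for genes upstream of squalene, -0.21 and -0.03 for the other sterol genes, 0.22 and -0.20 for sensing and transport and 0.41 and -0.34 for desaturases. ACLY was higher by 1.03 (adjusted p = 0.00155 from limma) and 0.82 (0.00314), and the call against HIF2α-ko was lost with median ratio scaling. ACSS2 was higher by 1.07 (0.0308) and 1.15 (0.014), the first lost without any HIF1α-ko or dual knockout library (1.03 without HIF1α-ko replicate 3). FASN stood at 1.04 (0.0532) and 0.84 (0.0794), and with the block both passed the threshold (6.99e-05 and 6.21e-05).

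The desaturases parted here. FADS1 was higher by 1.10 (adjusted p = 0.0183 from limma) and 0.89 (0.0309), whereas SCD stood at 0.18 and -0.12 and did not pass the threshold, with or without the block. FADS2 stood at 0.48 and -0.11. It passed only against HIF1α-ko, and there only with the block (adjusted p = 0.00298 from limma). The FADS1 call against HIF1α-ko was lost without HIF1α-ko replicate 1 (0.99, 0.065) or HIF1α/2α-ko replicate 3, and the call against HIF2α-ko without any HIF2α-ko or dual knockout library (0.85 without HIF2α-ko replicate 1), without the filter or with median ratio scaling, while with the block both passed (9.21e-05 and 9.17e-05). The ratio of FADS1 to SCD was 0.0528 to 0.0553 in the dual knockout and 0.0228 to 0.0338 in the other 9 libraries.

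Among the sterol genes, FDFT1 was higher in the dual knockout by 1.06 (adjusted p = 0.0101 from limma) and 1.11 (0.00432), calls that held without any single library. SCAP was higher by 0.87 (0.00742) and 1.52 (9.57e-05), which also held. INSIG1 was higher than in HIF1α-ko by 0.88 (0.0243), a call lost without HIF1α-ko replicate 3 or one of HIF1α/2α-ko replicates 1 and 3 (0.70 without the last), and differed from HIF2α-ko by -0.12 (0.732). SREBF2 was higher by 0.34 (0.0341) and 0.35 (0.0178). The first was lost without any HIF1α-ko or dual knockout library or HIF2α-ko replicate 2 (0.30 without HIF1α-ko replicate 3), the second without HIF2α-ko replicate 3 (0.32), and both with median ratio scaling. MVD and IDI1 were higher than in HIF2α-ko by 0.76 (0.00275) and 1.21 (0.0167), the former call lost with median ratio scaling and the latter without HIF2α-ko replicate 1 (1.02) or either of HIF1α/2α-ko replicates 2 and 3.

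The members lower in the dual knockout were few. INSIG2 was lower than in HIF2α-ko by a log2 difference of -1.82 (adjusted p = 6.58e-06 from limma) and STARD4 by -0.67 (0.0155). PMVK was lower than in HIF1α-ko (-0.69, 0.0045) and than in HIF2α-ko (-0.44, 0.0285), the latter lost without either of HIF2α-ko replicates 2 and 3 or of HIF1α/2α-ko replicates 1 and 3 (-0.38 without the last). With the block, EBP and TM7SF2 were also lower than in both single knockouts, EBP by -0.62 (0.000513) and -0.37 (0.00336), and TM7SF2 by -0.5 (0.0111) and -0.4 (0.0217), and STARD4 was lower than in HIF1α-ko by -0.29 (0.0267). Of the oxygen-consuming sterol genes 0 passed the threshold by limma in the fit of all 4 groups (also 0 at an unadjusted p below 0.05), and with the block SQLE was higher than in both (0.57, adjusted p = 0.00168 from limma, and 0.86, 0.000124) and MSMO1 than in HIF1α-ko (0.26, 0.015).

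**Figure D5:**
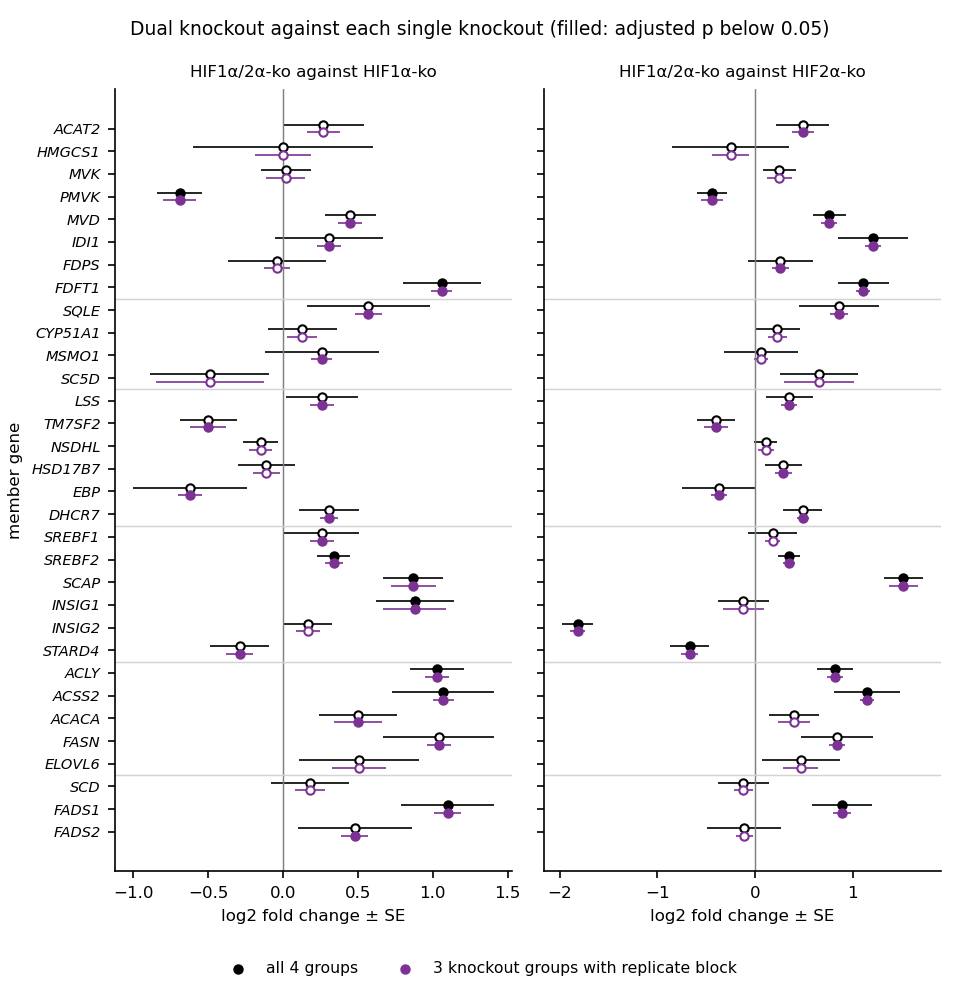
Log2 fold change (horizontal axes, with standard error) of each member in the dual knockout against HIF1α-ko (left) and HIF2α-ko (right), from the fit of all 4 groups (black) and from the fit of the 3 knockout groups that blocks on the replicate number (purple). Filled points have an adjusted p below 0.05 from limma. Both panels share the dual knockout libraries, and FDFT1, SREBF2, SCAP, ACLY, ACSS2 and FADS1 are filled and above 0 in both panels by both fits.

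The interaction asks whether the change in the dual knockout differs, on the log2 scale, from what the changes of both single knockouts add up to. It was below 0 for 4 members (7.35% of all genes) and above 0 for 0 (13.2%), at an adjusted p below 0.05 from limma, and above 0 for 1, SCAP, at an unadjusted p below 0.05. PMVK had an interaction of -1.20 (standard error 0.21, adjusted p = 0.00305 from limma), which held without any single library. EBP (-1.73, 0.0398), TM7SF2 (-0.89, 0.0326) and STARD4 (-0.95, 0.0325) passed as well, and these 3 were lost without vector replicate 2 or 3, among others (-1.40 for EBP without vector replicate 3, -0.92 for STARD4 without HIF1α/2α-ko replicate 3 and -0.81 for TM7SF2 without HIF2α-ko replicate 2). Without vector replicate 1 the count was 17 below and 0 above. The share of all genes in that fit is not given here, so the 17 cannot be read as particular to the members. The estimate uses the vector libraries once with a positive sign, so lower vector values lower it.

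Genes next to the members in these pathways were taken from lists written for the purpose, and their counts can be read against the shares of all genes given for the members. Of 8 genes for other branches of mevalonate, 1 rose with HIF1α lost, 0 with HIF2α lost and 1 in the dual knockout, where 1 fell. Among all genes 17.3%, 5.07% and 31.8% rose in this order and 14.8% fell in the dual knockout. The counts of this list were thus near or below those shares. COQ2, of coenzyme Q synthesis, rose from 4.26 to 4.52 TPM in vector to 8.74 to 10.5 in the dual knockout (0.96, adjusted p = 0.000157 from limma). FNTB, the β subunit of farnesyltransferase, fell there (-0.93, 0.00105). MBTPS1, the site-1 protease that cuts SREBPs, rose in the dual knockout by 0.73 (adjusted p = 0.0092 from limma).

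Of 5 tested genes of sterol efflux and LXR targets, 2 rose and 1 fell without HIF1α, 1 and 1 without HIF2α, and 2 and 1 without both. Of all genes, 17.3% and 8.77%, 5.07% and 5.89%, and 31.8% and 14.8% did so in the same order. LPCAT3, an LXR target that remodels phospholipids, had vector replicate 1 apart as for the members, with 28.9, 4.66 and 4.98 TPM in vector against 31.6 to 41.6 in the dual knockout (1.92, adjusted p = 0.00619 from limma, and 2.71, 4.54e-06, without vector replicate 1). NR1H2, which encodes LXRβ, rose by 0.48 (0.00592), and MYLIP, a ligase that degrades lipoprotein receptors, fell (-1.18, 0.0002). Of 13 tested other fatty acid genes, 8 rose and 1 fell in the dual knockout, 6 and 1 in HIF1α-ko, and 1 and 0 with HIF2α lost, against 31.8% and 14.8%, 17.3% and 8.77%, and 5.07% and 5.89% of all genes, so that 1 of 13 was near the share of all genes. These were, without vector replicate 1, 9 and 1, 8 and 1, and 4 and 0. Named by size, these were ACSL3, an acyl-CoA synthetase (1.97, 0.000452), HACD3, a dehydratase of fatty acid elongation (1.84, 0.00307), and ELOVL5, an elongase of polyunsaturated fatty acids (1.51, 2.38e-05). CH25H, an oxygen-consuming sterol hydroxylase and the 1 tested of its list of 4, fell in the dual knockout (-0.91, 0.00486).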

How the data were processed

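The submitters' processing notes name FastQC 0.11.2, Trimmomatic 0.36, HISAT2 2.0 and bedtools 2.26.0 with GRCh38, and the counting tool and annotation are not given in the sources used here. The authors deposited TPM values, 1 column per library and no pooling, which summed to 999955 to 999982. The vector libraries were identified as the 3 columns that carry no code of a knockout. Symbols were found for 20148 of 20263 genes. Gene positions are from GENCODE 29.

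Genes that reached a TPM of 1 in 3 or more libraries were fitted as log2(TPM + 1) with limma 3.58.1 (R 4.3.3), mean-variance trend, 4 groups in 1 model. The fitting script was first checked on simulated data, from which no value is reported. Tables were made in Python 3.11.15 (numpy 2.4.6, pandas 2.3.3) and figures in matplotlib 3.10.9. The members and lists were chosen with earlier results of these data known. Every member was named, with HIF1A, EPAS1 and up to 3 genes of each further list with the largest change among those called in the dual knockout. Deviations of same-numbered libraries correlated across genes in the knockout groups (r of 0.463 to 0.508, 0.227 to 0.25 and 0.196 to 0.222 for replicates 1, 2 and 3). With vector the values were lower (-0.0265 to 0.163). On these values the numbers were used as a block in the knockout groups, though the labels do not say what they stand for. Deviations within a group cancel out, so a shift of replicate 1 shared by the knockout groups also gives positive values for replicates 2 and 3. Libraries of different number were not compared, so these values do not show that the libraries were paired. Alternatives were a pseudocount of 0.1, no filter, median ratio scaling, only the groups compared, a replicate block, and leaving out each library or replicate 1 of every group. Fits of the 3 knockout groups, without and with the block, were added after seeing the data. Some genes of the list of proteases and ligases of sterol sensing are not reported here, and neither are its counts.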

Additional observations from a re-analysis of the deposited data

Results flagged for a closer look

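For 4 members the effect of losing HIF1α differed between cells with and without HIF2α, by the interaction term of limma. PMVK had an interaction of -1.20 (adjusted p = 0.00305 from limma), as both single knockouts were above vector and the dual knockout was not. TM7SF2 had -0.89 (0.0326), EBP -1.73 (0.0398) and STARD4 -0.95 (0.0325). Of these 4 calls only that of PMVK held whichever single library was left out. The other 3 were lost without vector replicate 2 or 3, among others. The critical values used to mark a single library of a group start at 4 libraries, so none was marked that way in these groups of 3.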

How the results depend on the processing

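The depth behind the TPM values is unknown, and 3 libraries a group with 1 of 3 vector libraries apart limit every comparison with vector. Counts of members called, higher and lower together, ranged with each library left out in turn from 6 to 31 in HIF1α-ko (17 with all), from 1 to 28 in HIF2α-ko (9), and from 18 to 28 in the dual knockout (23). Against HIF1α-ko the dual knockout had 4 to 14 (8), against HIF2α-ko 8 to 18 (11), the single knockouts 1 to 11 (3) and the interaction 1 to 17 (4). With replicate 1 of every group left out, the counts were 31 in HIF1α-ko, 27 in HIF2α-ko, 16 and 22 for the dual against the single knockouts, 9 between the single knockouts and 23 for the interaction, and the FADS1 interaction turned from 0.15 to -0.52 (adjusted p = 0.0173 from limma). With only the groups compared they were 8, 1 and, between the single knockouts, 9, and without the filter 4 in HIF2α-ko and 2 for the interaction. With the replicate block on all groups HIF2α-ko had 15. With the 3 knockout groups alone the dual knockout differed from HIF1α-ko in 13 and from HIF2α-ko in 17, and the single knockouts in 10, and with the replicate block these counts were 21, 20 and 16. The cause of these differences was not tested, beyond the fewer samples or genes in a fit. Shares of all genes are given for only some of these fits. Median ratio scaling brought the median of all genes from 0.18 to 0.01 in HIF1α-ko and from 0.21 to 0.01 in the dual knockout. With a pseudocount of 0.1 each of the 32 members kept its side of the threshold in every comparison with or between groups and in the interaction.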

Other observations

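Replicate 1 of each group had the highest FASN and SREBF1 TPM of its group. For FASN these values were 114, 153, 186 and 310 in vector, HIF1α-ko, HIF2α-ko and the dual knockout, and for SREBF1 they were 62.0, 84.7, 86.7 and 103. The summed TPM of the members without SCD was 4007 to 4647 in HIF1α-ko, 4675 to 5064 in HIF2α-ko and 5486 to 6678 in the dual knockout, without overlap between these groups, and 4879, 2070 and 2259 in vector. With SCD the sums of HIF2α-ko (12076 to 13761) and the dual knockout (12597 to 14627) overlapped. Such sums are weighted to the most abundant members.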
